A study of Mus musculus with 8 samples.

Results

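The 32 genes described here encode proteins of mitosis, namely the G2/M cyclins and Cdk1, mitotic kinases, kinetochore proteins, spindle proteins and cytokinesis proteins. They were chosen by name, from their known roles, but with earlier results of these data known, so the list is no independent evidence. They were found among the 52636 gene identifiers of the count matrix by matching identifiers to mouse symbols. All 32 were detected in every library and all 32 were among the 17378 genes tested. They were read in S0 cells sorted by FACS from the fetal liver at E12.5, in 4 WT and 4 DKO libraries.

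Mitosis is driven by Cdk1 bound to its cyclins, which is switched on as a cell passes from G2 into division. Kinetochores then attach chromosomes to spindle microtubules, a checkpoint holds the anaphase-promoting complex back until all chromosomes are attached, and the central spindle directs the cleavage furrow. Transcripts of these genes accumulate in G2 and M, so in a mixed population their level follows the share of cycling cells as well as the level in each cell. In the fetal liver, erythroid precursors divide repeatedly while they mature, and expansion of red cell numbers depends on these divisions.

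WT libraries were labelled wild type. DKO libraries were labelled Vps13a/Vps13c DKO, and both genes encode bridge-like lipid transport proteins. The Vps13a-/- allele is the tm1d allele, made with FLP recombinase and with a β-actin-Cre transgene that deletes an exon in the whole body, and it was combined with Vps13c-/-. DKO embryos came from interbreeding of Vps13a+/-/Vps13c-/- mice, a cross in which every embryo lacks Vps13c, so embryos that are wild type at both genes would come from other litters, and litter and genotype cannot then be told apart. All mice were kept on C57BL/6J. Both groups thus share strain, age and gate, and embryos lacking only 1 of the proteins were not analysed here. S0 cells are the fraction without the lineage markers of other blood cells and without CD71 and Ter119, that is, the least mature fraction of the erythroid series in this gate. Whether each library came from a single embryo or from pooled embryos was not given in the sources used here.

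Totals lay between 42114489 and 50886469 counts in WT libraries and between 36981439 and 42587815 in DKO libraries. Vps13a averaged 1943 ± 130 normalized counts over the WT libraries and 794 ± 194 over the DKO libraries (mean ± SD, n = 4 per group, as in all such values), and its log2 fold change was -1.29 (edgeR adjusted p = 0.00247). The part of Vps13c removed by its allele is not given in the sources used here, so its count over the whole gene (583 ± 74.9 in WT and 816 ± 279 in DKO) checks nothing. The erythroid regulator Klf1 had 12312 ± 1724 normalized counts in WT libraries and 12795 ± 3376 in DKO libraries, and of 12 erythroid markers 2 passed the test, both higher in DKO, with a median log2FC of 0.00. The X-linked transcript Xist was at 0 to 30.1 normalized counts in WT libraries and at 27043, 18029, 62.3 and 21393 in DKO replicates 1 to 4, so DKO replicate 3 alone resembled WT in it. The Y-linked gene Ddx3y was at 2911 to 3354 in WT, at 2516 in DKO replicate 3 and at 41.0 or less in the other DKO libraries. The labels give no sex, and between WT and the 3 DKO libraries other than replicate 3 a difference of sex and one of genotype cannot be told apart. None of the members lies on chromosome X or Y.

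Values are normalized counts, that is, counts scaled by TMM to a common effective library size, and log2FC is the log2 fold change of DKO over WT, given with its standard error (SE). A gene passed the test when its adjusted p from edgeR's quasi-likelihood test, adjusted over all 17378 genes, was under 0.05. Of the 32 members, 23 fell in DKO (71.9%) and 0 rose, whereas 10.8% of all genes tested fell and 10.7% rose. With upper-quartile scaling 15 members fell and 0 rose, while over all genes the calls shifted from 1878 lower and 1867 higher to 1242 and 2492. DESeq2 called 24 members lower, against 12.4% of the genes it tested, and 0 higher, and no member was higher at an unadjusted p under 0.05 in edgeR (0 of 32). The log2FC was below 0 in 31 of 32 members (27 with upper-quartile scaling), against 47.4% of all genes tested. The median over the members was -0.39, ranging from -1.0 (Ect2) to 0.14 (Birc5), beside a median of 0.03 over all genes tested. In 21 members every DKO library lay below every WT library, and in 0 members every DKO library lay above, while 14.6% and 13.5% of all genes did so. For groups that do not overlap, the exact two-sided permutation test always gives p = 0.0286, the smallest value that 70 arrangements of 4 against 4 allow. For those 21 it thus restates the separation and adds no further test.

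The falls were moderate in size. With the additional requirement of a log2FC below -1, Ect2, just past that limit, was the only member left (1 of 32, against 2.43% of all genes tested), and 0 members were above 1, where 6.19% of all genes were. Replicates differed little, with a median SD of log2 values of 0.123 in WT and 0.153 in DKO over the members. Over all genes tested it was 0.207 and 0.355. Neither this comparison nor the shares of calls were matched for level. Even Anln, the lowest member per kb of exon, was above 59.6% of all genes tested. The median level of the members relative to the WT mean, on the log2 scale with a pseudocount of 1, was 0.03, 0.02, -0.16 and 0.09 in WT replicates 1 to 4 and -0.51, -0.33, -0.31 and -0.44 in DKO replicates 1 to 4. Every DKO library was thus below every WT library in this median. WT replicate 3 was the lowest WT library for 29 of 32 members, and the lowest DKO library was replicate 1 for 15 members and replicate 4 for 13.

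**Figure D1:**
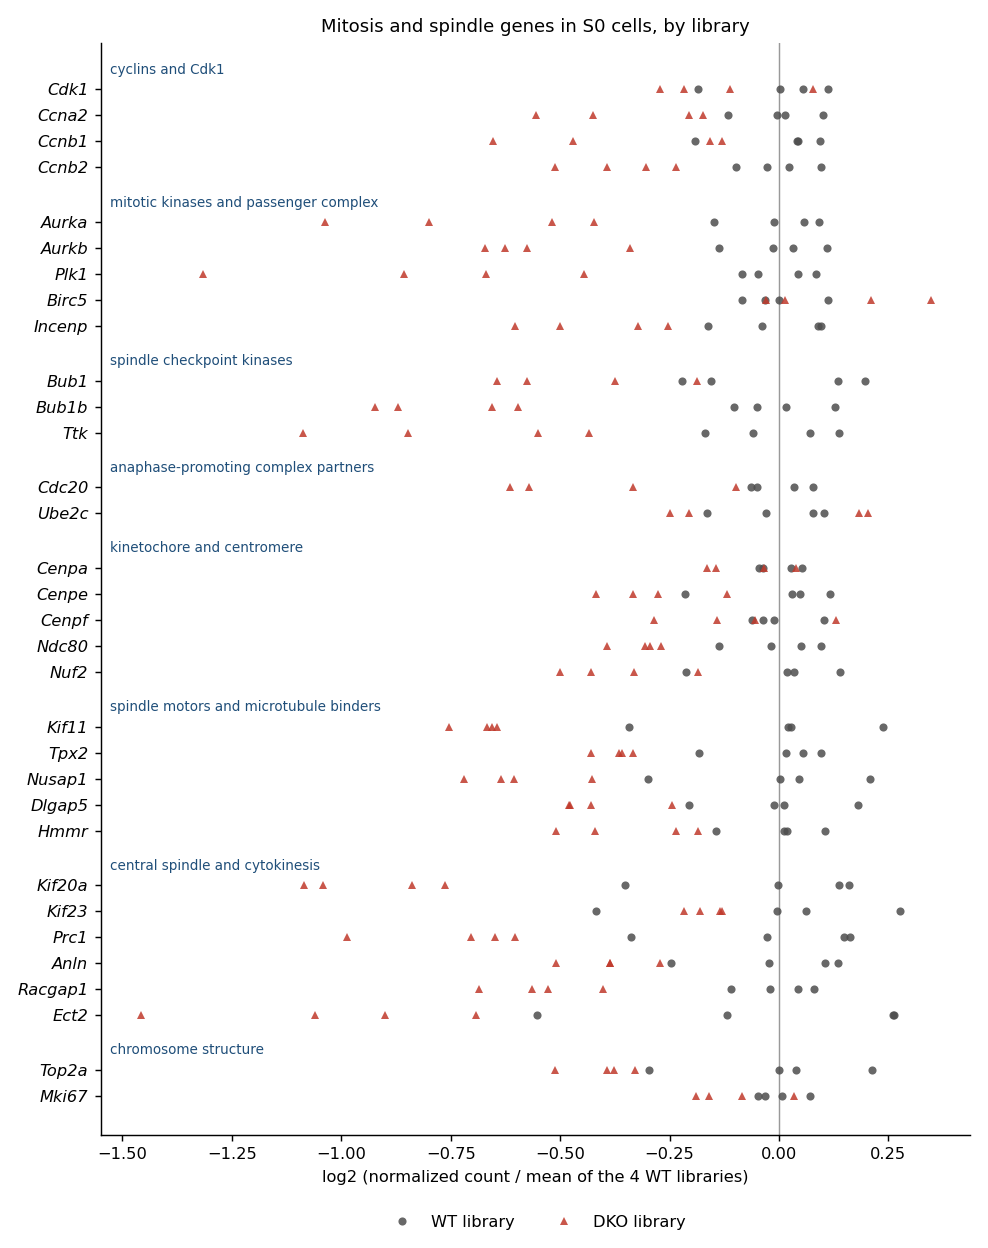
Normalized count of each member in each library, on a log2 axis relative to the mean of the 4 WT libraries (grey line at 0), with WT libraries as grey circles and DKO libraries as red triangles. In 21 of 32 members all triangles lie to the left of all circles, and the triangles reach furthest left for Ect2, Plk1, Ttk and Kif20a.

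How far the count rests on single libraries was examined by leaving out each of the 8 in turn. The number of members that passed was then 12 without WT replicate 1, 14 without WT replicate 2 and 12 without WT replicate 4, and between 17 and 22 without any of the others. Calls over all genes dropped in the same fits, from 10.8% of genes lower to 4.96% without WT replicate 1, 5.85% without WT replicate 2 and 5.31% without WT replicate 4. Of the 23, 12 passed whichever library was left out, namely Aurka, Aurkb, Plk1, Bub1b, Ttk, Kif11, Tpx2, Nusap1, Kif20a, Prc1, Racgap1 and Ect2. The other 11 lost the call in 2 to 7 of the 8 fits, and all 11 lost it without WT replicate 1 and without WT replicate 4. In these 2 fits their log2FC lay between -0.41 and -0.30, against -0.43 to -0.32 with all libraries. When the 4 WT libraries were compared with DKO replicate 3 alone, the DKO library that resembled WT in Xist, 10 members passed and all 10 were lower, with a median of -0.34 over the members, and 10.3% of 19942 genes tested were lower. In that fit the lone DKO library was assumed to vary like the WT libraries.

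The transcription of many of these genes in G2 and M depends on a pair of promoter elements, the cell cycle genes homology region (CHR) and the CCAAT box. CHR elements are bound by the MuvB core of the DREAM and B-MYB complexes, and CCAAT boxes by NF-Y. Promoter windows of 300 bases, from 250 before to 50 after the RefSeq transcript start on GRCm38.p6, were at hand for 26 of the 32 members. Windows of Aurkb, Ccna2, Dlgap5, Incenp, Kif20a and Tpx2 were not used here. The CHR was searched as TTTGAA and the CCAAT box as CCAAT, both on either strand (TTCAAA and ATTGG on the other). The windows printed are those of the 4 members with the smallest edgeR p among those holding both motifs, and that of Ube2c, picked after its values were seen because it holds both motifs and has the log2FC nearest to 0. Capitals mark the CHR and CCAAT matches, and sequences read 5′ to 3′ on the strand of the gene. Bub1b lies at chr2:118597961-118598260 on the plus strand, Racgap1 at chr15:99651607-99651906 on the minus strand, Kif11 at chr19:37376132-37376431 on the plus strand, Prc1 at chr7:80294201-80294500 on the plus strand and Ube2c at chr2:164769679-164769978 on the plus strand.
Bub1b: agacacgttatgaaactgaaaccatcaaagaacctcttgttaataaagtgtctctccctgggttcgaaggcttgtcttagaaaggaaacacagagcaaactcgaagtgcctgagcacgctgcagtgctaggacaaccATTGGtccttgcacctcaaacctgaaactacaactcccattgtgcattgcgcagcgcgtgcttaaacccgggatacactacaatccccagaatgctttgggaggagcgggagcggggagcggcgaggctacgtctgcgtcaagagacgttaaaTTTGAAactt
Racgap1: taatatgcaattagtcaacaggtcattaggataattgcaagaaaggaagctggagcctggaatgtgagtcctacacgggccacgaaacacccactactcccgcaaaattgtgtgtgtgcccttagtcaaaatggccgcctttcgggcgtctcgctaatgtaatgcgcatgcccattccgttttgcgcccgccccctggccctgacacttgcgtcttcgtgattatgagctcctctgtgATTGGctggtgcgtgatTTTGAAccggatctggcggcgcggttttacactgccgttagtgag
Kif11: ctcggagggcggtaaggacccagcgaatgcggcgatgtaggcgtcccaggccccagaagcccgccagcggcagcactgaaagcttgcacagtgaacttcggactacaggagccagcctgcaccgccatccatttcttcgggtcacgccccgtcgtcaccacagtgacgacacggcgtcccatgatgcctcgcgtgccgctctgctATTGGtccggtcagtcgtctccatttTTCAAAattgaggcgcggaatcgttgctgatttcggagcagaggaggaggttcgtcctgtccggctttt
Prc1: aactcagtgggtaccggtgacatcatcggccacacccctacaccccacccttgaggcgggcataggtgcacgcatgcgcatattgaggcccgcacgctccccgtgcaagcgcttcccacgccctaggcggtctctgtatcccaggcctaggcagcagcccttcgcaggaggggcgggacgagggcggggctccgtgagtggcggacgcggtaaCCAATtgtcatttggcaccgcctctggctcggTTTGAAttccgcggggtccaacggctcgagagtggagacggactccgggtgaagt
Ube2c: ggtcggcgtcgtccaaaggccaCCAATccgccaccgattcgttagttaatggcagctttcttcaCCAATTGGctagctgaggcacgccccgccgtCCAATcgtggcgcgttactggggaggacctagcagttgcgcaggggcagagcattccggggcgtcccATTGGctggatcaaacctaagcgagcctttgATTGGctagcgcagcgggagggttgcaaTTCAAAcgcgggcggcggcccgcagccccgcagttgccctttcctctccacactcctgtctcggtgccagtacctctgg

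In the windows of Bub1b, Racgap1, Kif11 and Prc1 a single CCAAT box preceded a single CHR. The CHR began 40 bases after the start in Bub1b and 5 bases after it in Racgap1, and at -19 in Kif11 and -5 in Prc1. The Ube2c window held 6 CCAAT matches, in which a CCAAT and an ATTGG overlap once, and a CHR at -29. Over the 26 members with a window, 20 held a CHR (76.9%, against 18.1% of 27025 windows of all genes), 21 held a CCAAT box (80.8% against 37.9%) and 18 held both (69.2% against 7.12%). The nearest CHR began within 50 bases of the start in 19 of the 20, and 49 of 50 CCAAT matches lay before the start, at a median distance of -74.5 bases. E2F words (TTTCCCGC, TTTCGCGC, TTTGCCGC or TTTGGCGC on either strand) were found in 1 member, Cdk1 (3.85%, against 2.32% of all windows).

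Members with and without both motifs covered overlapping ranges of change. Of the 18 members with both, 12 fell, with a median log2FC of -0.40 and a range from -1.0 to 0.00. Of the 8 without both, 5 fell, with a median of -0.35 and a range from -0.59 to 0.14. The members without a window all fell and are not part of this split. Among DNA replication genes, which peak earlier in the cycle, 12.9% of 31 windows held a CHR and 35.5% held an E2F word. Among 114 windows of other mitosis genes, 39.5% held a CHR and 26.3% held both motifs. Those genes were chosen from general knowledge, with earlier results of these data known. A match is only a run of letters, and binding to these promoters was not measured.

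**Figure D2:**
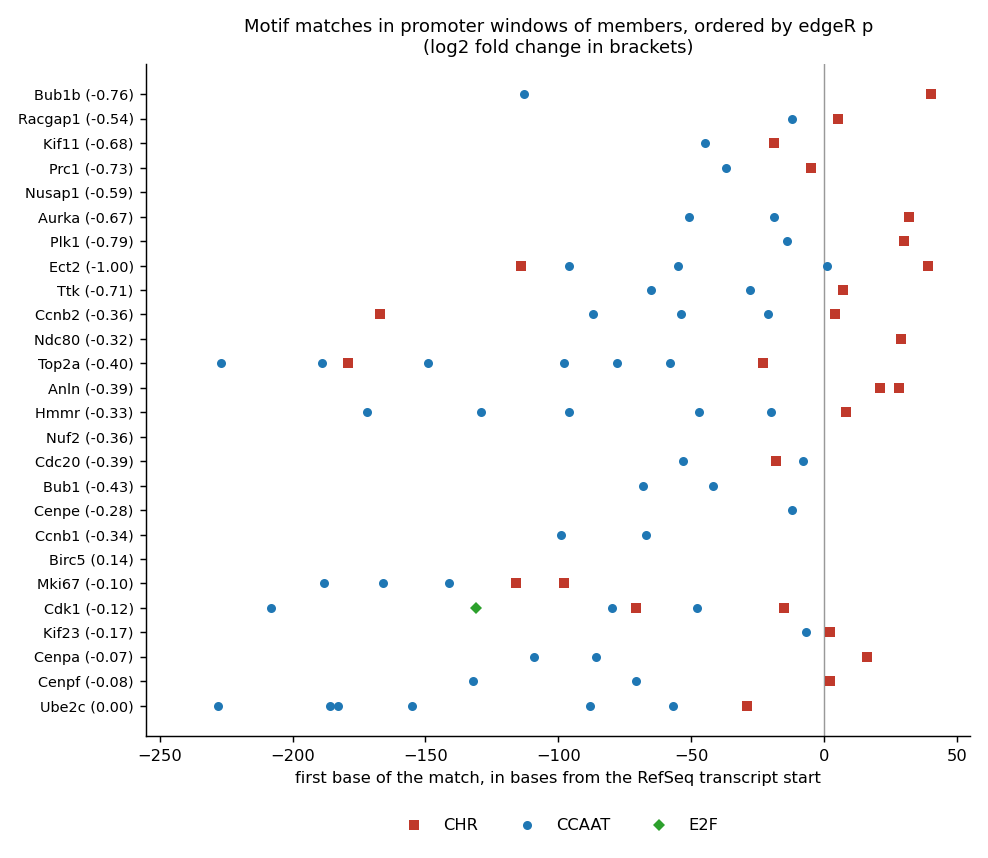
Position of the first base of each CHR (red squares), CCAAT (blue circles) and E2F (green diamond) match in the promoter windows of 26 members, in bases from the RefSeq transcript start, with members ordered from the smallest edgeR p at the top and the log2 fold change in brackets. CHR matches crowd around the start and CCAAT matches lie before it, both in members at the top and in those at the bottom such as Ube2c and Cenpf.

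Of the cyclins and Cdk1, 2 of 4 fell. Cyclin B2 (Ccnb2), a mitotic cyclin, had 11840, 11420, 10878 and 12451 normalized counts in WT libraries and 8171, 9900, 9442 and 8873 in DKO libraries. The groups did not overlap, and the log2FC was -0.36 (SE 0.08, edgeR adjusted p = 0.0164). Cyclin A2 (Ccna2), which acts in S phase and G2, fell by 0.33 on the log2 scale (adjusted p = 0.0419, edgeR). That call was lost without any of WT replicates 1, 2 and 4 and DKO replicates 1 and 4 (edgeR adjusted p up to 0.122), as was that of Ccnb2 without WT replicate 1 or 4 (up to 0.0556). Exosc9, which overlaps Ccna2 on the opposite strand, had 38.1% of its count.

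Cyclin B1 (Ccnb1), the main partner of Cdk1 at entry into mitosis, had 13661, 13200, 11217 and 13172 normalized counts in WT libraries and 8147, 11483, 11702 and 9248 in DKO libraries. DKO replicates 2 and 3 exceeded WT replicate 3, and the fold change of -0.34 (SE 0.13) did not pass (edgeR adjusted p = 0.085). Cdk1, the catalytic subunit, had 9340 ± 807 in WT and 8568 ± 936 in DKO, a log2FC of -0.12 (edgeR adjusted p = 0.403). Per kb of exon, the ratio of Ccnb1 to Cdk1 was 1.61 ± 0.0747 in WT and 1.38 ± 0.147 in DKO, with overlap between the groups, and that of Ccna2 to Cdk1 was 1.33 ± 0.0906 and 1.14 ± 0.0845, also with overlap.

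Of the mitotic kinases and the chromosomal passenger complex, 4 of 5 fell. Plk1 (ENSMUSG00000030867.7, plus strand of chromosome 7 from 122159439 to 122169873, GRCm38), the polo-like kinase needed for centrosome maturation and kinetochore attachment, had 9278, 8257, 8461 and 9016 normalized counts in WT libraries and 3518, 5502, 6428 and 4835 in DKO libraries. Even the highest DKO library was below the lowest WT library, and DKO replicate 1 was the lowest. Its log2FC was -0.79 (SE 0.16, edgeR adjusted p = 0.0101). Aurka, the kinase of spindle poles, had 7677, 7325, 6659 and 7870 in WT and 3597, 5155, 5510 and 4244 in DKO, again with replicate 1 lowest and without overlap. Its log2FC was -0.67 (SE 0.13, edgeR adjusted p = 0.00905).

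The passenger complex, which corrects faulty attachments and later moves to the central spindle, changed unevenly. Its kinase Aurkb had 8050, 8311, 7393 and 8770 normalized counts in WT libraries and 5105, 5453, 6419 and 5266 in DKO libraries. It fell by 0.55 on the log2 scale (SE 0.09, edgeR adjusted p = 0.0056). The scaffold Incenp had 6427 ± 536 in WT and 4824 ± 531 in DKO and fell by 0.41 on the log2 scale (edgeR adjusted p = 0.0192), a call lost without WT replicate 1 or 4 (up to 0.0625). Survivin (Birc5), another subunit, was not lower: its counts were 9778, 10566, 9226 and 9573 in WT and 9589, 11326, 12446 and 9872 in DKO, with a log2FC of 0.14 (SE 0.10, edgeR adjusted p = 0.324). Per kb of exon, Birc5 stood at 1.05, 1.10, 1.08 and 0.945 times Aurkb in WT and at 1.63, 1.80, 1.68 and 1.62 times Aurkb in DKO. The groups do not overlap in this ratio, which was picked for partners within a complex and not tested, while the ratio of Incenp to Aurkb overlapped (0.538 ± 0.0297 in WT and 0.591 ± 0.0413 in DKO).

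All 3 checkpoint kinases fell, with a median log2FC of -0.71. Bub1b (BubR1, ENSMUSG00000040084.9, plus strand of chromosome 2 from 118598211 to 118641591), a subunit of the complex that inhibits Cdc20, had 6159, 5882, 5675 and 6655 normalized counts in WT libraries and 3331, 3867, 4031 and 3212 in DKO libraries. All DKO libraries lay far below all WT libraries, and Bub1b had the smallest p of the 32 members, with a log2FC of -0.76 (SE 0.10, edgeR adjusted p = 0.00243). Ttk (Mps1), which starts checkpoint signalling at kinetochores, had 2319, 2022, 1875 and 2214 in WT and 1438, 1560, 1171 and 991.6 in DKO. Its log2FC was -0.71 (SE 0.15, edgeR adjusted p = 0.0117), and here DKO replicate 4 was the lowest.

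Bub1, the kinase that recruits the other checkpoint proteins, had 4666, 3647, 3815 and 4872 in WT and 2852, 3732, 2720 and 3278 in DKO. DKO replicate 2 exceeded WT replicate 2, and the fold change of -0.43 passed narrowly (edgeR adjusted p = 0.0439). The call was lost when any library other than DKO replicate 2 was left out (up to 0.125). The ratio of Bub1b to Bub1 per kb of exon overlapped between groups, with 1.47 ± 0.134 in WT and 1.19 ± 0.229 in DKO.

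The 2 partners of the anaphase-promoting complex differed from each other. Cdc20, the activator that brings substrates to the complex in mitosis, had 10795, 11811, 10696 and 11448 normalized counts in WT libraries and 7529, 8884, 10452 and 7302 in DKO libraries. DKO replicate 3 came close to WT replicate 3, and the log2FC was -0.39 (SE 0.12, edgeR adjusted p = 0.0402). The call was lost when any library other than DKO replicate 3 was left out (up to 0.107). Elovl1, on the opposite strand and overlapping Cdc20, had 64.0% of its count, and without a stated strand setting their reads cannot be told apart. Ube2c, the conjugating enzyme that starts ubiquitin chains on the substrates, had 12201, 13381, 11107 and 13137 in WT and 10793, 14350, 14131 and 10489 in DKO. The DKO libraries fell on both sides of the WT libraries, and the log2FC was 0.00 (SE 0.12, edgeR adjusted p = 0.993), with a sign that turned in several alternatives. Per kb of exon, Cdc20 stood at 1.23, 1.23, 1.34 and 1.21 times Ube2c in WT and at 0.971, 0.862, 1.03 and 0.969 times in DKO, without overlap.

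Of the kinetochore and centromere genes, 2 of 5 fell, both subunits of the Ndc80 complex that grips microtubule ends. Ndc80 had 2823, 2914, 2478 and 2691 normalized counts in WT libraries and 2222, 2077, 2204 and 2262 in DKO libraries. The groups did not overlap, and the log2FC was -0.32 (SE 0.08, edgeR adjusted p = 0.025). Nuf2 had 2659, 2889, 2263 and 2685 in WT and 1855, 2085, 2309 and 1949 in DKO. DKO replicate 3 exceeded WT replicate 3, and the log2FC was -0.36 (SE 0.11, edgeR adjusted p = 0.0395). The call of Ndc80 was lost without WT replicate 1, 2 or 4 or DKO replicate 2 (up to 0.0799), and that of Nuf2 without the same WT replicates or DKO replicate 1, 2 or 4 (up to 0.113). With a library left out, the log2FC stayed between -0.36 and -0.28 for Ndc80 and between -0.43 and -0.30 for Nuf2. Per kb of exon, Nuf2 stood at 0.984 ± 0.0414 times Ndc80 in WT and 0.959 ± 0.107 times in DKO, a difference smaller than the spread between libraries.

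The remaining kinetochore genes did not pass. The kinetochore kinesin Cenpe had 5499 ± 529 normalized counts in WT libraries and 4522 ± 402 in DKO libraries, with a log2FC of -0.28 (edgeR adjusted p = 0.0668). Cenpa, the histone H3 variant that marks centromeres, had 11910 ± 400 and 11315 ± 758, with a log2FC of -0.07 (edgeR adjusted p = 0.509). Cenpf, a large protein of the outer kinetochore, had 5012 ± 256 and 4740 ± 576, with a log2FC of -0.08 (edgeR adjusted p = 0.594). In all 3 the groups overlapped, and with upper-quartile scaling the sign of Cenpa and Cenpf turned (0.03 each).

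All 5 spindle motors and microtubule binders fell, and in all 5 the groups did not overlap. The bipolar kinesin Kif11 (Eg5), which pushes spindle poles apart, had 6927, 6967, 5386 and 8057 normalized counts in WT libraries and 4303, 4339, 4373 and 4053 in DKO libraries. The DKO libraries were close together while WT replicates 3 and 4 were far apart, and the log2FC was -0.68 (SE 0.11, edgeR adjusted p = 0.00531). Nusap1, which bundles spindle microtubules, had 5573, 5403, 4384 and 6236 in WT and 3477, 3279, 4014 and 3546 in DKO. It fell by 0.59 on the log2 scale (SE 0.12, edgeR adjusted p = 0.00873), with Oip5 on the opposite strand at 31.8% of its count. Tpx2, which activates Aurka and brings it to the spindle, had 7728, 7943, 6733 and 8172 in WT and 5678, 6063, 5965 and 5932 in DKO. Its log2FC was -0.37 (SE 0.08, edgeR adjusted p = 0.0121), smaller in size than that of Aurka, but their ratio per kb of exon overlapped (0.560 ± 0.0193 in WT and 0.708 ± 0.121 in DKO).

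Dlgap5 (HURP), which stabilizes kinetochore fibres, had 2867 ± 311 normalized counts in WT libraries and 2165 ± 172 in DKO libraries, with a log2FC of -0.40 (edgeR adjusted p = 0.0225). The call was lost without WT replicate 1, 2 or 4 (up to 0.0624). Hmmr, a microtubule-binding protein of spindle poles, had 6488 ± 457 and 5155 ± 539, with a log2FC of -0.33 (edgeR adjusted p = 0.0347). That call was lost without WT replicate 1, 2 or 4 or DKO replicate 3 (up to 0.0991).

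Of the genes of the central spindle and cytokinesis, 5 of 6 fell, and these included the members with the largest fold changes. Ect2 (ENSMUSG00000027699.19, minus strand of chromosome 3 from 27097222 to 27153878, GRCm38), which activates RhoA at the cleavage site, had 2374, 3094, 1757 and 3090 normalized counts in WT libraries and 1237, 1595, 1381 and 938.3 in DKO libraries. WT replicate 3 stood little above DKO replicate 2, and the log2FC was -1.0 (SE 0.21, edgeR adjusted p = 0.0117). Kif20a, the kinesin that carries the passenger complex to the central spindle, had 8037, 7295, 5720 and 8165 in WT and 3442, 4083, 4301 and 3550 in DKO. The groups were well apart, with a log2FC of -0.93 (SE 0.13, edgeR adjusted p = 0.00288). Cdc23, a gene on the opposite strand that overlaps Kif20a, had 103% of its count, so reads of both cannot be told apart without the strand.

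Prc1, which bundles antiparallel microtubules of the central spindle, had 6579, 5825, 4700 and 6645 normalized counts in WT libraries and 3787, 3643, 3911 and 2994 in DKO libraries. It fell by 0.73 on the log2 scale (SE 0.13, edgeR adjusted p = 0.00636). Racgap1 and Kif23 together form centralspindlin, which recruits Ect2. Racgap1 had 5459, 5219, 4910 and 5598 in WT and 3296, 3579, 4009 and 3672 in DKO, a log2FC of -0.54 (SE 0.08, edgeR adjusted p = 0.00416). Its partner Kif23 had 2580, 2462, 1849 and 2993 in WT and 2251, 2181, 2256 and 2125 in DKO, and did not pass (log2FC -0.17, edgeR adjusted p = 0.41). WT replicate 3 was below all DKO libraries for Kif23. Per kb of exon, Kif23 stood at 0.416 ± 0.0585 times Racgap1 in WT and 0.545 ± 0.0477 times in DKO, without overlap, while the ratio of Ect2 to Racgap1 overlapped (0.637 ± 0.142 in WT and 0.467 ± 0.104 in DKO). Anillin (Anln), the scaffold of the contractile ring, had 2281 ± 264 in WT and 1746 ± 118 in DKO, a fall of 0.39 on the log2 scale (edgeR adjusted p = 0.031) that was lost without WT replicates 1, 2 or 4 or DKO replicates 2 or 4 (up to 0.0902).

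**Figure D3:**
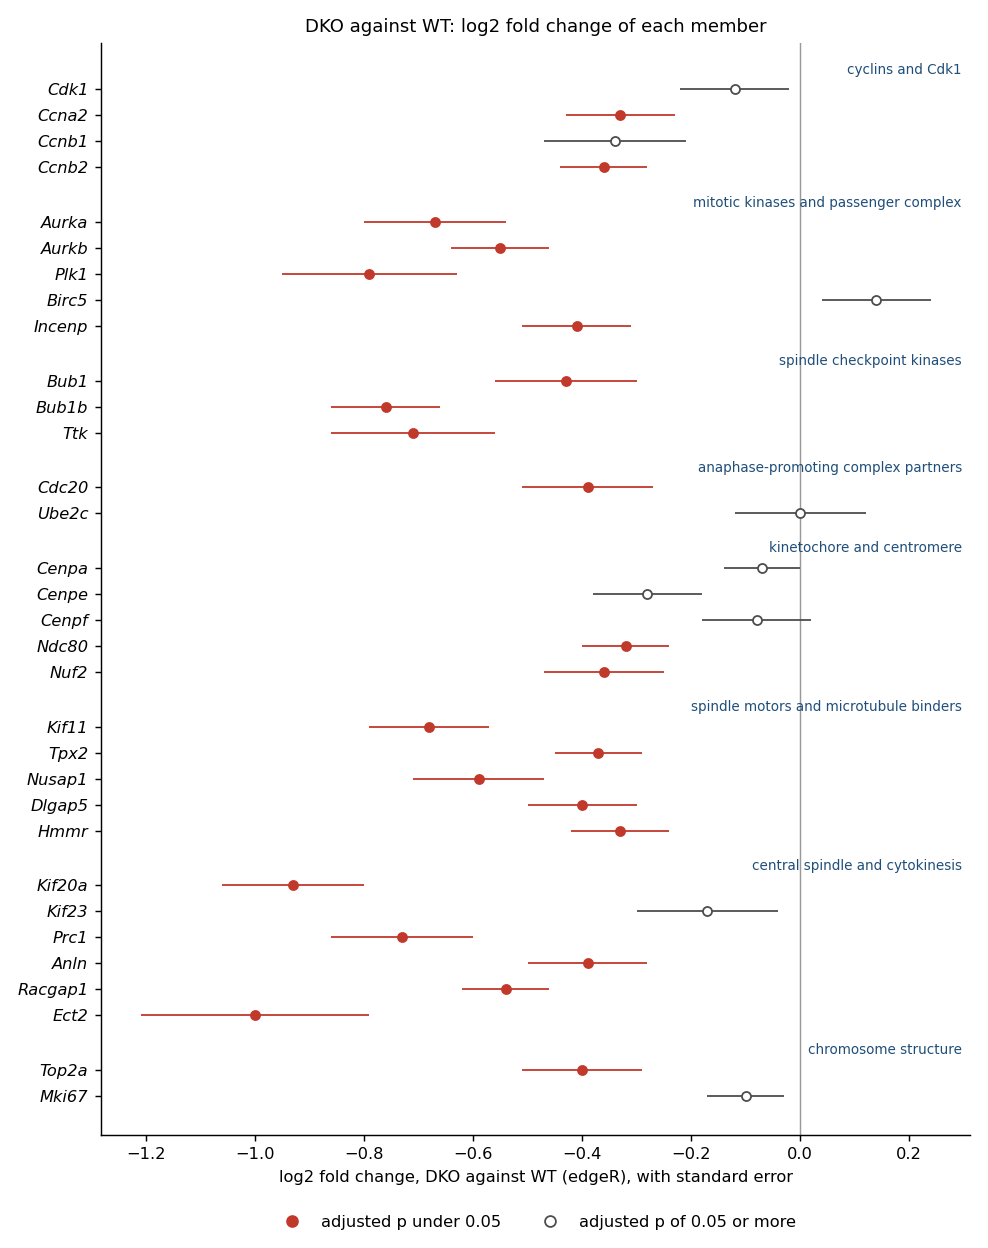
Log2 fold change of DKO against WT for each member by edgeR, with bars of 1 standard error, grouped by role, filled where the adjusted p was under 0.05 and open otherwise. Ect2 and Kif20a lie furthest below 0, and Birc5 is the only point above 0 with the TMM scaling used here (upper-quartile scaling puts Ube2c, Cenpa, Cenpf and Mki67 above it too).

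The 2 genes of chromosome structure differed in outcome. Top2a, the topoisomerase that untangles sister chromatids, had 22966, 22324, 18190 and 25889 normalized counts in WT libraries and 17023, 17203, 17799 and 15681 in DKO libraries. The highest DKO library was just below the lowest WT library, and the log2FC was -0.40 (SE 0.11, edgeR adjusted p = 0.0267), a call lost without WT replicate 1, 2 or 4 or DKO replicate 4 (up to 0.0749). Mki67 (Ki-67), which coats mitotic chromosomes and is used as a marker of cycling cells, had 12127, 12455, 11998 and 13012 in WT and 12695, 10866, 11696 and 11105 in DKO. The groups overlapped, and the log2FC was -0.10 (SE 0.07, edgeR adjusted p = 0.383), or 0.01 with upper-quartile scaling.

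**Figure D4:**
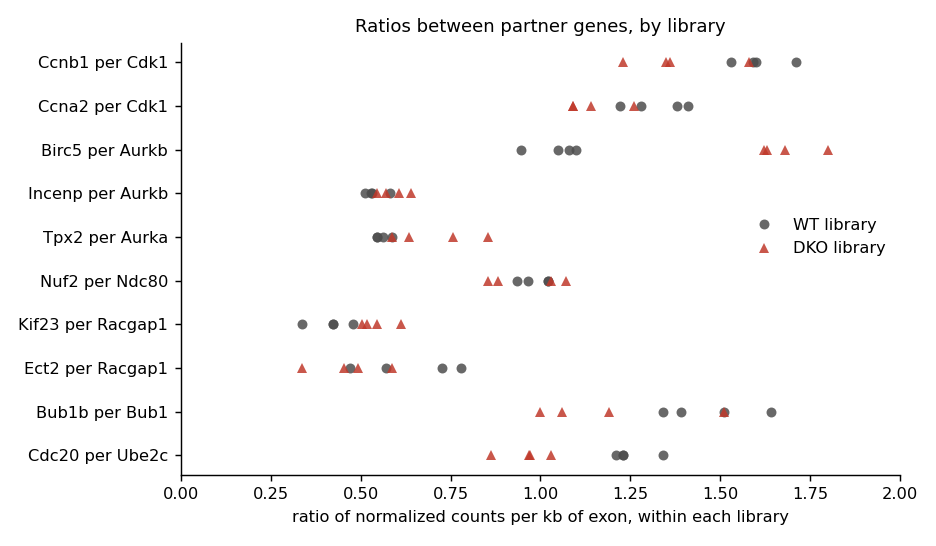
Ratio of normalized counts per kb of exon between partner members, computed within each library, with WT libraries as grey circles and DKO libraries as red triangles on a linear axis from 0. The groups are apart for Birc5 per Aurkb and Kif23 per Racgap1, where DKO is higher, and for Cdc20 per Ube2c, where DKO is lower, and they overlap in the other 7 ratios.

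Levels were compared between genes per kb of exon, taking all annotated exons of a gene together. The order in WT was led by Ccnb2 with 7610 ± 434 normalized counts per kb, Cdc20 with 5990 ± 286, Ube2c with 4790 ± 397 and Plk1 with 3980 ± 216, each apart from the next by more than their SDs. Ccnb1 (3040 ± 258), Aurka (2920 ± 211), Birc5 (2880 ± 167) and Aurkb (2760 ± 195) followed and were within their spread of each other. The lowest were Cenpf (325 ± 16.6), Kif23 (313 ± 59.9) and Anln (252 ± 29.1), and even Anln was above 59.6% of all genes tested in mean level per kb. In DKO the order began with Ccnb2 (5940 ± 487), Ube2c (4780 ± 801), Cdc20 (4570 ± 778) and Birc5 (3180 ± 391), of which Ube2c and Cdc20 were within their spread of each other. Birc5 moved from rank 7 to rank 4 and Aurka from rank 6 to rank 11. Counts of the members were far above the floor, the lowest deposited count in any library being 898, for Ect2.

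The other genes of mitosis were read in the same fit. The 6 lists of such genes were drawn from general knowledge, with earlier results of these data known. Over all genes tested, 10.8% fell and 10.7% rose. Of 134 such genes, 39 fell (29.1%) and 5 rose, with a median log2FC of -0.21. Whether their share differed from that of the members was not tested. Subunits of the anaphase-promoting complex and its enzymes split, with 4 of 17 lower and 3 higher. Its subunit Anapc5 fell from 22949 ± 1022 to 16672 ± 1129 normalized counts (log2FC -0.46, edgeR adjusted p = 0.00481) and Anapc1 by 0.44 on the log2 scale, whereas the enzyme Ube2s, which extends the chains begun by Ube2c, rose from 747 ± 23.3 to 1294 ± 170 (log2FC 0.79, edgeR adjusted p = 0.00409) and Anapc13 rose by 0.35.

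In cohesin and separase, 6 of 17 fell and 0 rose, those with the smallest p being Sgo2a, which protects centromeric cohesin (log2FC -0.64, edgeR adjusted p = 0.00796), and Stag2, an X-linked cohesin subunit (log2FC -0.48, edgeR adjusted p = 0.00885). In condensin, which compacts mitotic chromosomes, 2 of 8 fell, Ncaph (log2FC -0.61) and Ncapd2 (log2FC -0.45). Among other kinetochore genes 9 of 39 fell, among them the X-linked gene Cenpi (log2FC -0.79), and 2 rose, Cenpb (log2FC 0.63) and Zwilch (log2FC 0.36). Among other spindle and centrosome genes 14 of 38 fell and 0 rose, those with the smallest p being Haus3 (log2FC -0.55), a subunit of augmin, and Ckap2l (log2FC -0.66). Of the kinases and phosphatases of mitotic entry, with Ccnf among them, 4 of 15 fell and 0 rose, those with the smallest p being Ccnf (log2FC -0.71) and Pbk (log2FC -0.59).

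The regulators of G2/M transcription were read next to their promoter elements. Of 18, 5 fell and 0 rose. Nfya, the subunit of NF-Y that contacts CCAAT, had 4072, 3886, 3934 and 3891 normalized counts in WT libraries and 2385, 2713, 2558 and 2045 in DKO libraries. All DKO libraries were far below WT, with a log2FC of -0.70 (edgeR adjusted p = 0.00278). The NF-Y subunit Nfyc fell too (log2FC -0.35, edgeR adjusted p = 0.0392), whereas Nfyb did not pass (log2FC -0.13, edgeR adjusted p = 0.33). In the MuvB core Lin9 fell (log2FC -0.56, edgeR adjusted p = 0.0136), and Lin37, Lin52, Lin54 and Rbbp4 did not pass. B-MYB (Mybl2) did not pass either (log2FC 0.06, edgeR adjusted p = 0.845). Whether these levels bear on the members was not tested. E2f8, a repressor of the E2F family, fell from 2108 ± 280 to 1166 ± 123 (log2FC -0.85, edgeR adjusted p = 0.00346). Of 40 DNA replication genes 17 fell and 0 rose, with a median of -0.26, those with the smallest p being the helicase subunits Mcm4 (log2FC -0.71, edgeR adjusted p = 0.00263) and Mcm6 (log2FC -0.65, edgeR adjusted p = 0.00308). Of 12 G1 cyclins, their kinases and E2F genes 2 fell, Cdk2 (log2FC -0.58) and Ccne2 (log2FC -0.36), and 1 rose, cyclin D2 (Ccnd2), from 14655 ± 1044 to 20877 ± 1858 (log2FC 0.51, edgeR adjusted p = 0.0056). The counts of these G1 genes were near the shares of all genes tested that fell (10.8%) and rose (10.7%).

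Among inhibitors of cyclin-dependent kinases 2 rose and 0 fell. Cdkn1a (p21) had 760.3, 816.7, 732.3 and 628.6 normalized counts in WT libraries and 1041, 1368, 1692 and 2323 in DKO libraries. All DKO libraries exceeded all WT libraries, with a log2FC of 1.13 (edgeR adjusted p = 0.00953). Cdkn1c (p57) had 1646, 1718, 2267 and 2074 in WT and 9604, 3522, 3400 and 5176 in DKO, with DKO replicate 1 far above the others (log2FC 1.49, edgeR adjusted p = 0.0114). These were the 2 that passed among 5 inhibitors tested of 7 listed. The summed mesenchyme markers described below were also highest in DKO replicate 1 (55721), where Cdkn1a was the lowest of the DKO libraries. Whether other cells had a part in either rise was not tested.

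**Figure D5:**
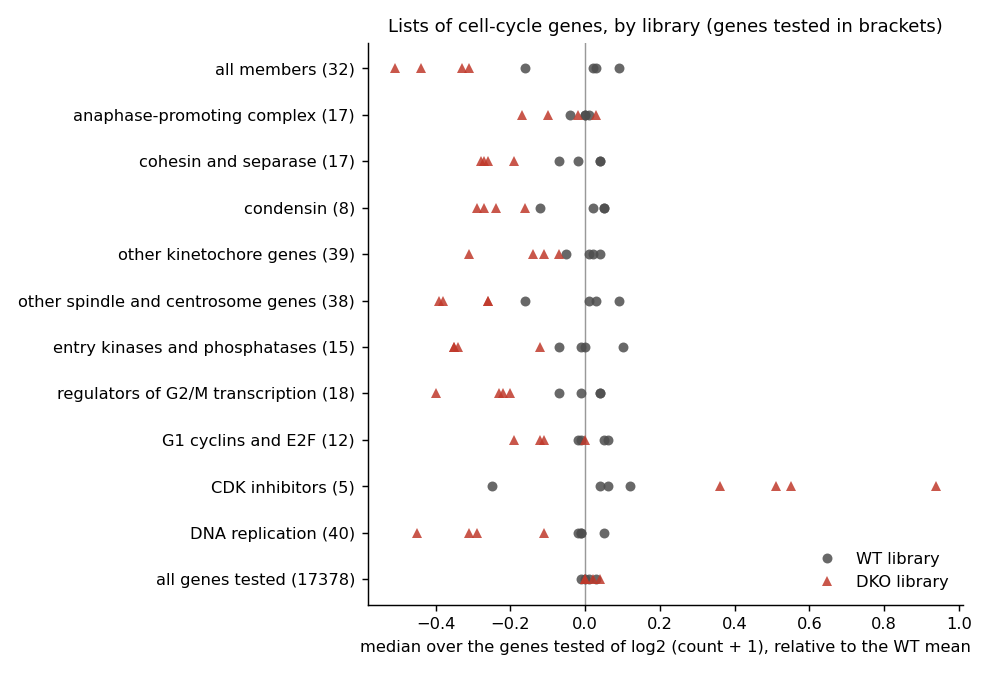
Median over the genes of each list of the log2 level (pseudocount of 1 normalized count) relative to the WT mean, per library, with WT libraries as grey circles, DKO libraries as red triangles and the number of genes tested in brackets. The DKO medians of the members lie between -0.51 and -0.31, those of the inhibitors of cyclin-dependent kinases above the WT libraries, and those of all genes tested close to 0.

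Markers of other cells moved between the groups as well, where 10.8% of all genes tested fell and 10.7% rose. Of 10 mesenchyme markers, 8 rose and 0 fell, and their summed level was 9062 to 13043 normalized counts in WT libraries and 22155 to 55721 in DKO libraries. Of 10 progenitor markers, a list that includes myeloid genes, 8 fell and 0 rose, with sums of 120750 to 160969 in WT and 17358 to 53408 in DKO. Those that fell were Kit, Cd34, Flt3 and Hlf, and the myeloid genes Mpo, Ctsg, Elane and Csf3r. Meis1 and Mecom did not pass (log2FC -0.11 and -0.14). Kit fell from 8763 ± 1019 to 4066 ± 747 (log2FC -1.11, edgeR adjusted p = 0.00239). Mpo, the most abundant of the list, fell from 108147 ± 12327 to 22998 ± 13731, and the progenitor sum mostly follows it. DKO replicate 1, the lowest DKO library for 15 members, had the highest mesenchyme sum and the lowest progenitor sum. The other DKO libraries did not keep this order in the progenitor sum. DKO replicate 4, the lowest for 13 members, had a progenitor sum of 40506 and a mesenchyme sum of 28410. DKO replicate 3, the highest DKO library for 19 members, had 38953 and 23906. Among the WT libraries, replicate 3, the lowest for 29 members, had the lowest progenitor sum (120750) and the highest mesenchyme sum (13043). WT replicate 4, the highest WT library for 17 members, had the highest progenitor sum (160969) and a mesenchyme sum of 11616. Of 12 hepatoblast markers none passed (0 of 12 in edgeR, 6 at an unadjusted p under 0.05), with sums of 534368 to 737231 in WT and 177667 to 642786 in DKO. Their median log2FC was -0.66, and in 6 every DKO library lay below every WT library, as in 14.6% of all genes. With DESeq2, Alb, Apoa1, Ttr, Ahsg and Serpina1a were called lower. For macrophage markers 1 of 9 tested fell, with sums of 4929 to 7467 in WT and 1393 to 4421 in DKO, and Cd163 was at 0 in every library. Endothelial markers (2 of 10 lower) summed to 14818 to 16326 in WT and 9503 to 16488 in DKO. Megakaryocyte markers (1 of 10 lower, near the share of all genes) summed to 63635 to 74385 and 45483 to 132551. Such sums mostly follow the most abundant genes of a list and do not measure a cell type. The endothelial sum was led by Egfl7 (9801 ± 375 in WT and 10195 ± 2547 in DKO). The 2 endothelial genes that fell were Pecam1 (1673 ± 155 and 760 ± 258) and Tie1 (1580 ± 270 and 794 ± 289). The part of these differences in the falls of the members was not tested. In RNA from a bulk fraction, fewer dividing cells and less RNA of these genes in each dividing cell cannot be told apart.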

How the data were processed

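Libraries of S0 cells were made by the study from total RNA with a low-input template-switching kit and sequenced as paired ends. Reads were trimmed with fastp 0.21.0, mapped to mm10 with HISAT2 2.2.1, filtered at a mapping quality of 20 and quantified with StringTie 1.3.3b, per the submitters' processing notes and the study's methods. The authors deposited whole-number counts per gene, not normalized and not pooled. The strand setting is not given in the sources used here.

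Of 52636 identifiers, 52489 (99.7%) were matched to a symbol of the GRCm38 annotation. The main test was that of edgeR 4.0.16, with limma 3.58.1, under R 4.3.3 (filterByExpr, TMM, robust quasi-likelihood test, Benjamini-Hochberg adjustment, no covariate), and DESeq2 1.42.0, the tool of the study, was an alternative. The labels give no batch, and p-values measure the spread between libraries. The labels gave each library its group and number. Same-numbered WT and DKO libraries did not deviate together (correlations of -0.102, 0.0535, -0.0276 and -0.00717), so numbers were not used as pairs. No library was a second copy of another. With at least 36981439 counts per library, spread between replicates and not counting limited the precision.

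The members, the gene lists, the tests and the alternatives were chosen with earlier results of these data known, so the lists are no independent evidence. Subunits of NF-Y and MuvB, and B-MYB, were named for the promoter elements they bind. By rule, the others named were all members and the promoters of the 4 members with the smallest p holding both motifs. In each other cell-cycle list they were up to 2 genes per direction with the smallest p among those that passed. A gene that this rule names is not reported here. Cell type marker genes serve as values beside the results. Genes whose counts could include reads of an overlapping gene were 4 members (over 10% of the member's count). Counts were also simulated at a median biological coefficient of variation of 0.267 over 16785 genes. The WT against DKO test recovered 11.9% of genes changed by a log2 of 0.5, 59.7% at 1 and 90.9% at 2. It called 9 of 16585 unchanged genes. The members varied less between replicates (median SD of log2 values 0.123 in WT and 0.153 in DKO) than all genes tested (0.207 and 0.355). These recovered shares are thus not those of the members.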

Additional observations from a re-analysis of the deposited data

How the results depend on the processing

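Of the members, 23 were lower and 0 higher. The lower count was 15 with upper-quartile scaling, 10 against DKO replicate 3 alone and 1 with a log2 fold change beyond 1, and 12 to 22 with a library left out. The higher count stayed 0 in all alternatives. The median of -0.39 became -0.28 with upper-quartile scaling and lay between -0.45 and -0.35 with a library left out. Of the other mitosis genes, 39 were lower and 5 higher. The lower count was 25 with upper-quartile scaling, 18 against DKO replicate 3, 0 beyond 1, and 22 to 44 with a library left out. The higher count was 12 with upper-quartile scaling, 3 without a low-count filter, 0 beyond 1, and 2 to 9 with a library left out. DESeq2, other size factors, library size alone, a minimum of 10 counts and protein-coding genes alone kept these counts within 1.5 times, and a pseudocount of 5 in place of 1 left the median at -0.39.

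Upper-quartile scaling moved the median of all genes by 0.108 and the calls to 1242 lower and 2492 higher, from 1878 and 1867. Under it 4 members changed sign: Ube2c (0.11), Cenpa (0.03), Cenpf (0.03) and Mki67 (0.01). Ube2c also changed sign with DESeq2 size factors (0.01), a minimum of 10 counts (0.01), protein-coding genes (0.04) and DKO replicate 3 alone (0.16, with Cenpa at 0.02), and ranged from -0.08 to 0.07 with a library left out. None of these members passed in any fit. A block for replicate number gave 12 lower members, and 24 lower and 2 higher other mitosis genes, with 6.23% of all genes tested lower, but the numbers do not pair the libraries. The cause of these shifts was not tested.

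The 9 members that missed the test had standard errors of 0.07 to 0.13 on the log2 scale, set by 4 libraries per group.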
